A study of Mus musculus with 12 samples.

Results

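Hif3a and the genes of the hypoxia-inducible factor (HIF) system that surround it were followed across sorted germ and somatic cells of the newborn mouse testis. The 10 genes were given by name and selected with earlier results of these data known: Hif3a was chosen by its response to dexamethasone (dex) in somatic cells, and Hif1a, Epas1, Arnt, Egln1, Egln2, Egln3, Vhl, Hif1an and Vegfa because they belong to the same system. They are 10 of the 54532 genes counted. All mice carried the Pou5f1-EGFP transgene Tg(Pou5f1-EGFP)2Mnn, in which the Oct4 promoter drives a green fluorescent protein, so that GFP-positive germ cells could be sorted from GFP-negative somatic cells. Dams were injected intraperitoneally with 10 μg dex per g of body weight at E17.5 and E18.5, the pups received the same dose under the skin at PN0, and the testes were collected at PN1 (E, embryonic day; PN, postnatal day); controls received saline on the same schedule. There were 3 libraries of each of the 4 groups (saline germ, dex germ, saline somatic and dex somatic cells), and per the study's methods each was made from testes pooled over litters dosed independently.

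HIF transcription factors carry the response of cells to low oxygen. Each is a pair of an oxygen-regulated alpha subunit, HIF1A, EPAS1 (also called HIF2A) or HIF3A, and the constant partner ARNT. When oxygen is sufficient, the prolyl hydroxylases EGLN1, EGLN2 and EGLN3 mark the alpha subunits for capture by VHL, the recognition part of a ubiquitin ligase, and HIF1AN hydroxylates an asparagine that then blocks coactivator binding. The alpha subunits are regulated largely as proteins, which RNA levels do not measure. Some HIF3A isoforms restrain the other alpha subunits, and EGLN3 and VEGFA, a growth factor for blood vessels, are themselves targets of HIF. Dex is a synthetic ligand of the glucocorticoid receptor, itself a transcription factor.

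The libraries held between 18459692 and 25178477 counted reads, so that 3 counts, the level that a count of 0 allows, corresponded to between 0.114 and 0.165 CPM (counts of a gene scaled to a common library size), counting error only. The sort labels held in all 12 libraries: the 9 germ cell markers summed to between 3184 and 3436 CPM in germ cell libraries and to between 6.13 and 16.7 CPM in somatic libraries, whereas the 9 Sertoli cell markers summed to between 48.8 and 88.3 CPM in germ cell libraries and to between 5602 and 6338 CPM in somatic libraries. The GFP-negative fraction is a mixture of Sertoli, Leydig, peritubular, stromal, endothelial and blood cells, and in such bulk samples fewer cells of a type and less RNA per cell cannot be told apart.

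Hif3a (ENSMUSG00000004328, mm10 chromosome 7, 17031507 to 17062427, minus strand) was the member with the widest span of group means, from 10.3 to 130 CPM. In saline somatic cells it stood at 59.0, 54.4 and 59.6 CPM, and in dex somatic cells at 121, 140 and 129 CPM. In germ cells it stood at 10.3, 12.3 and 8.39 CPM with saline and at 8.04, 10.3 and 12.7 CPM with dex. The somatic groups therefore did not overlap and the germ cell groups did. The log2 fold change with dex, 1.21 ± 0.09 (SE) in somatic cells and −0.01 ± 0.20 in germ cells, is the value for which the gene was chosen and is given with no test. Leaving out any 1 somatic library gave somatic values between 1.14 and 1.26, a range that does not allow for the choice of the gene by these same libraries.

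Peritubular and stromal markers moved in the same direction as Hif3a in the somatic libraries. Their 8 genes summed to between 5174 and 6838 CPM with saline and to between 8425 and 9746 CPM with dex, and 4 of the 8, Col1a1, Dcn, Pdgfra and Acta2, rose, with log2 fold changes of 0.82, 0.72, 0.50 and 0.44. Of all genes tested for dex in somatic cells, 3.91% were called (2.74% higher and 1.17% lower), the share beside which the counts of this paragraph stand. Macrophage markers summed to between 50.5 and 88.1 CPM with saline and to between 23.9 and 32.1 CPM with dex, and 3 of 7 fell. Sertoli cell markers summed to between 5844 and 6106 CPM with saline and to between 5602 and 6338 CPM with dex, and none of 9 passed the test with edgeR (2 at an unadjusted p under 0.05; 1 called with DESeq2). The immediate-early genes Fos, Ier2 and Egr1, which respond to cell dissociation, rose by 0.80, 0.68 and 0.51 on the log2 scale. The 9 genes of that list summed to between 4432 and 6511 CPM with saline and to between 7374 and 8339 CPM with dex. The list did not move in 1 direction: 6 of the 9 had positive and 3 negative log2 fold changes, down to −0.55. Of the 3 negative ones 2 had an unadjusted p under 0.05 with edgeR and 0 were called. Erythroid markers summed to between 248 and 389 CPM with saline and to between 82.7 and 292 CPM with dex; all 4 tested of the 6 had negative log2 fold changes and 2, Hbb-bs and Hbb-bt, fell, while 1 of the 6 was at 0 in all dex somatic libraries. Fetal Leydig cell markers summed to between 535 and 616 CPM with saline and to between 480 and 592 CPM with dex; all 7 had negative log2 fold changes and 1, Star, fell (−0.69, adjusted p = 0.010, edgeR). No other marker gene of these lists was at 0 in all libraries of a somatic group. The part of these shifts in the level of Hif3a was not tested.

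The 250 bases before the start of each of 3 genes are shown here (RefSeq sequence, GRCm38.p6, each on the gene's own minus strand, 5′ to 3′), because Hif3a and Egln3 both stood higher in dex somatic cells whereas Vegfa, the textbook HIF target, did not. Capitals mark every hypoxia response core, ACGTG or GCGTG on either strand. The windows are chr7:17062428-17062677 for Hif3a, chr12:54203875-54204124 for Egln3 and chr17:46032378-46032627 for Vegfa.
Hif3a: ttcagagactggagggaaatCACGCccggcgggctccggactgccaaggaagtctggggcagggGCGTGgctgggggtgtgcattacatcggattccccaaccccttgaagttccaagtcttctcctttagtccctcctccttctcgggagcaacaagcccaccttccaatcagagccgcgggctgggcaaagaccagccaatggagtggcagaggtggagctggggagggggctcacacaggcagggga
Egln3: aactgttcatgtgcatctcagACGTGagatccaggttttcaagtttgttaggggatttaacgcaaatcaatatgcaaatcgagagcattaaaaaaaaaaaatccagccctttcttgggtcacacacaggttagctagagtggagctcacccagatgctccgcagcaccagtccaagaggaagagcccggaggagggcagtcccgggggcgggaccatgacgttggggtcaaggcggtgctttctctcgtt
Vegfa: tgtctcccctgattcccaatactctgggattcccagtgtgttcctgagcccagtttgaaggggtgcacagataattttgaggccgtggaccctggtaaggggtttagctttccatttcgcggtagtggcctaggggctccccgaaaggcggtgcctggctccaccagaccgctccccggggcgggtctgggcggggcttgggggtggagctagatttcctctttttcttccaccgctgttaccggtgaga

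The Hif3a window held 2 cores, at 230 to 226 bases (reverse strand) and at 186 to 182 bases before the start, the Egln3 window 1 core at 229 to 225 bases, and the Vegfa window 0. A second RefSeq start of Vegfa, inside the gene, had 2 cores in its window (chr17:46025164-46025413). At least 1 core was present in 38.6% of the 32851 RefSeq promoter windows of this length, so these matches are common. The glucocorticoid receptor half-site AGAACA, on either strand, was in 16.1% of all windows and in none of these 3, and the full inverted repeat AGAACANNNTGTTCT, which contains the half-site, was in 3 windows of all genes (0.00913%) and in none of these. The absence of these letters from 250 bases says nothing about binding elsewhere. By count of CpG dinucleotides the 3 windows were alike, with 9, 10 and 11 for Hif3a, Egln3 and Vegfa, against a median of 6 in all windows.

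The alpha subunits Epas1 and Hif3a stood in opposite order in germ and somatic cells, below Hif1a in the group means of both with saline. To compare genes with each other, the deposited FPKM values, which correct for gene length and depth, were used. In saline somatic cells Hif1a was the highest alpha subunit at 30.1 ± 2.23 FPKM (SD, n = 3), Hif3a followed at 8.24 ± 0.67 FPKM and Epas1 was lowest at 3.18 ± 0.29 FPKM. In saline germ cells Hif1a stood at 19.1 ± 1.24 FPKM, Epas1 at 13.1 ± 4.53 FPKM and Hif3a at 1.53 ± 0.29 FPKM. The ranges of the 3 genes overlapped in neither saline somatic cells nor dex somatic cells. In saline germ cells Hif1a and Epas1 overlapped in range, with Hif1a between 17.7 and 19.9 FPKM and Epas1 between 10.3 and 18.3 FPKM.

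**Figure D1:**
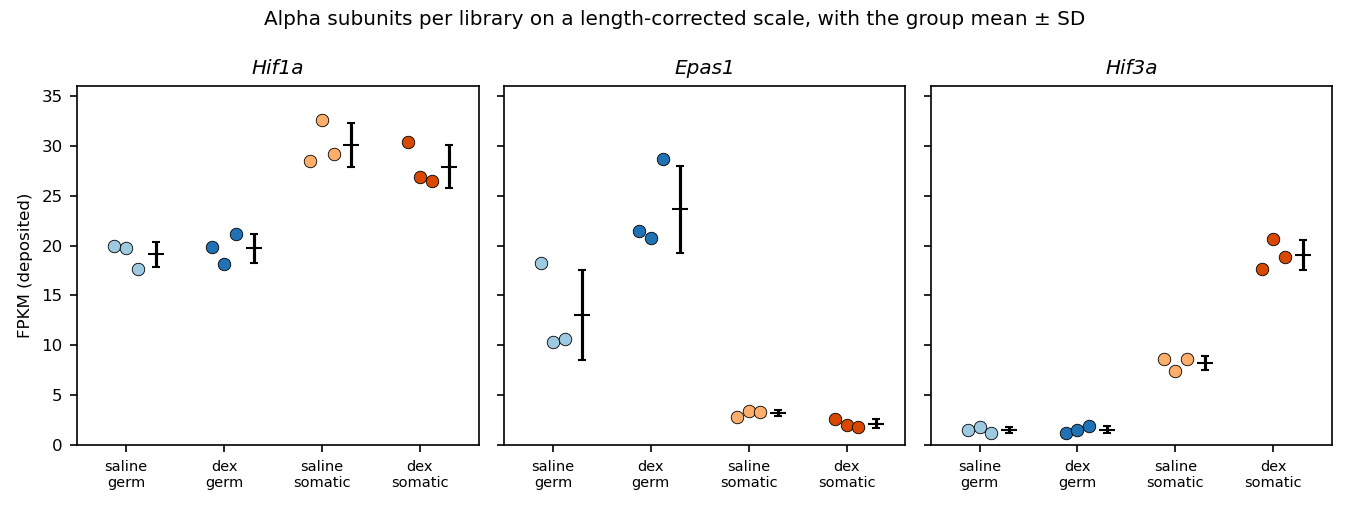
FPKM (vertical axis) of the alpha subunits Hif1a, Epas1 and Hif3a in each library of the 4 groups (points), with the group mean and SD beside them, n = 3 each. Epas1 is above Hif3a in every germ cell library and below it in every somatic library.

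As a share of the summed FPKM of the alpha subunits, Hif3a made up between 17.2% and 21.6% in saline somatic libraries and between 34.9% and 41.8% in dex somatic libraries. In germ cells its share was between 2.84% and 5.73% over all 6 libraries. Epas1 made up between 32.3% and 46.0% in saline germ cells, between 50.4% and 55.4% in dex germ cells, and at most 8.03% in any somatic library. These shares describe RNA and rest partly on the dex values by which Hif3a was chosen.

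Epas1 (ENSMUSG00000024140, chromosome 17, 86753907 to 86833410), the alpha subunit best known from endothelial and oxygen-sensing cells, was the one member that edgeR called for dex in germ cells. DESeq2 called Egln3 and Vegfa there in its place. It stood at 97.7, 55.0 and 56.2 CPM in saline germ cells and at 113, 110 and 151 CPM in dex germ cells. The groups did not overlap, but the highest saline library lay nearer to the dex libraries than to the other two. The log2 fold change was 0.83 ± 0.18 (1.77-fold; adjusted p = 0.043, edgeR quasi-likelihood test with Benjamini-Hochberg adjustment over 18550 genes). The call was lost in 9 of 15 alternatives: the adjusted p was 0.138 with DESeq2, 0.0689 without dex germ replicate 1, 0.157 without dex germ replicate 3, 0.190 without saline germ replicate 2 and 0.0876 without saline germ replicate 3.

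In somatic cells Epas1 was low, at 15.5, 19.6 and 18.01 CPM with saline and 14.2, 10.7 and 9.69 CPM with dex. Every dex somatic library was below every saline one, with a log2 fold change of −0.59 ± 0.17 that did not pass the test (adjusted p = 0.082, edgeR). It passed without dex somatic replicate 1 (adjusted p = 0.0389, edgeR). The dex effect on Epas1 differed between the populations, by 1.45 ± 0.29 on the log2 scale (germ minus somatic; adjusted p = 0.028, edgeR interaction over 20551 genes), a call lost in 9 of 20 alternatives, in which the adjusted p reached at most 0.0823. The lost ones included leaving out dex germ replicate 3 (0.0722), saline germ replicate 2 (0.0684) or 3 (0.0674), dex somatic replicate 2 (0.0622) or 3 (0.0668) and saline somatic replicate 2 (0.0512) or 3 (0.0624), all with edgeR. Of all genes tested, 0.827% were called for such a difference.

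Endothelial markers were read beside Epas1. In germ cell libraries Emcn and Esam stood below 1 CPM in all 6 libraries, and Cdh5 stood between 17.3 and 24.6 CPM against 193 to 295 CPM in somatic libraries. Pecam1 and Erg, by contrast, were higher in germ than in somatic libraries, at 23.5 to 34.8 and 41.8 to 62.6 CPM. Egfl7 in germ cells amounted to 180% of its somatic level with saline and 233% with dex, Tek to 87.2% and 149%, and Tie1 to 37.7% and 126%. Of the 8, 3 were called higher and 4 lower in germ cells with saline, and 3 higher and 3 lower with dex. Of all genes, 76.5% and 76.3% were called in these comparisons. The 8 endothelial markers summed to between 113 and 118 CPM in saline and between 123 and 132 CPM in dex germ cells, with none of the 7 tested called there by edgeR or DESeq2 (3 at an unadjusted p under 0.05 with each). In somatic libraries 7 of the 8 had negative log2 fold changes with dex, with a median over the 8 of −0.56 beside −0.01 over all genes, in the direction of Epas1. Of these Tek fell by 1.23 on the log2 scale (adjusted p = 0.027, edgeR), 1 of 8 called, beside 3.91% of all genes. Cdh5 alone stood higher in its group mean with dex (0.23, adjusted p = 0.307, edgeR) and made up most of the summed level, which was between 254 and 280 CPM with saline and between 246 and 319 CPM with dex. The dex effect on Pecam1 differed between the populations in the same direction as that on Epas1 (germ minus somatic 1.05 ± 0.24, adjusted p = 0.0496, edgeR). This was 1 of 8 called, beside 0.827% of all genes. The part of endothelial cells in the Epas1 values was not tested.

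Hif1a (ENSMUSG00000021109, chromosome 12, 73901375 to 73947530), the most widely expressed alpha subunit, showed no such pattern. It stood at 118, 117 and 104 CPM in saline germ cells and 116, 107 and 124 CPM in dex germ cells, and at 171, 209 and 177 CPM in saline and 183, 159 and 160 CPM in dex somatic cells. The dex groups overlapped the saline groups in both populations, with log2 fold changes of 0.02 ± 0.08 in germ cells and −0.11 ± 0.08 in somatic cells (adjusted p = 0.948 and 0.578, edgeR). Arnt (ENSMUSG00000015522, chromosome 3), the shared partner of the alpha subunits, stood between 53.8 and 71.8 CPM in germ cells and between 105 and 131 CPM in somatic cells. Its dex log2 fold changes were −0.00 ± 0.11 and −0.03 ± 0.09 (adjusted p = 0.997 and 0.914, edgeR).

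**Figure D2:**
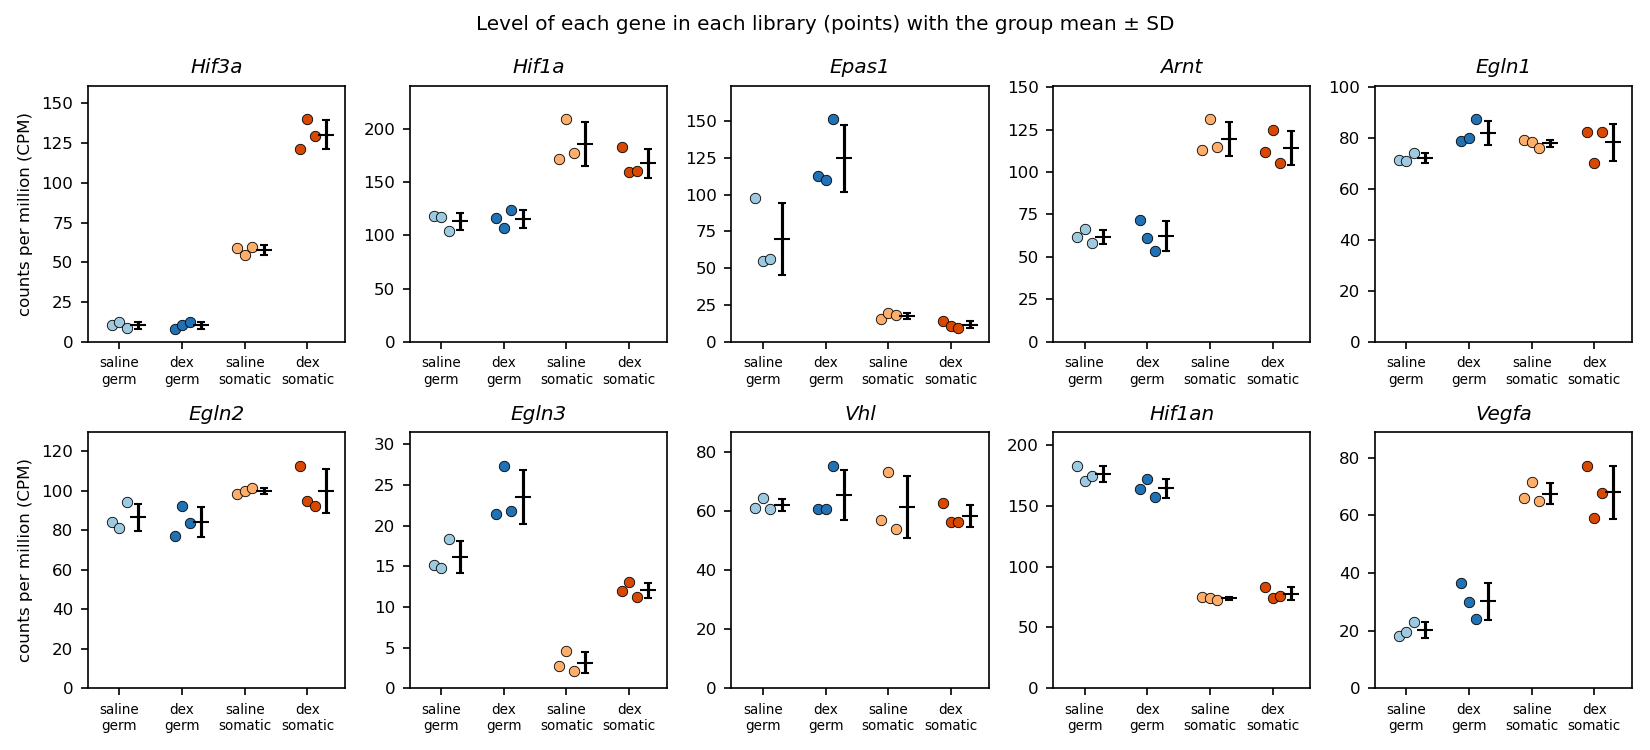
CPM (vertical axis, from 0, a separate scale for each gene) of the 10 genes in each of the 12 libraries (points, by group) with the group mean and SD, n = 3. Hif3a and Egln3 have no overlap between saline and dex somatic cells, whereas Hif1a, Arnt, Egln2 and Vhl overlap between saline and dex in both populations.

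Of the 3 prolyl hydroxylases, Egln3 alone passed the test for dex in somatic cells. Egln3 (ENSMUSG00000035105, chromosome 12, 54178981 to 54203860, minus strand) stood at 2.71, 4.59 and 2.19 CPM in saline somatic cells, from 46 to 106 counts, and at 11.9, 13.1 and 11.2 CPM in dex somatic cells, from 217 to 264 counts. All dex libraries were above all saline libraries. Egln3 rose by 1.97 ± 0.26 on the log2 scale (3.92-fold; adjusted p = 0.00031, edgeR), and the call was kept in all 15 alternatives, with a largest adjusted p of 0.0147. In germ cells Egln3 stood at 15.1, 14.8 and 18.4 CPM with saline and 21.5, 27.4 and 21.8 CPM with dex. These groups did not overlap either, with a log2 fold change of 0.54 ± 0.15 that did not pass the test (adjusted p = 0.088, edgeR; 0.0193 with DESeq2).

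The dex effect on Egln3 was larger in somatic than in germ cells by 1.38 on the log2 scale (germ minus somatic −1.38 ± 0.31; adjusted p = 0.045, edgeR). This call was lost in 14 of 20 alternatives, among them 11 of the 12 that left out 1 library, with adjusted p from 0.0505 to 0.0911; it was kept without saline somatic replicate 2 (0.0076), all with edgeR. Even with dex, Egln3 in somatic cells, at 12.1 ± 0.93 CPM, stood below its level in saline germ cells, at 16.1 ± 1.97 CPM (SD, n = 3), without overlap between the libraries.

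Egln1 (ENSMUSG00000031987, chromosome 8), the main oxygen-sensing hydroxylase, and Egln2 (ENSMUSG00000058709, chromosome 7) varied less. Egln1 stood at 71.4, 71.1 and 74.4 CPM in saline germ cells and 78.9, 79.98 and 87.4 CPM in dex germ cells. These groups did not overlap, and the log2 fold change of 0.17 ± 0.08 did not pass the test (adjusted p = 0.349, edgeR). In somatic cells Egln1 stood between 70.1 and 82.6 CPM over all 6 libraries (0.04 ± 0.09, adjusted p = 0.888, edgeR). Egln2 was the member with the highest FPKM in all 4 groups, with group means between 30.4 and 35.1 FPKM, and its dex log2 fold changes were −0.05 ± 0.09 and 0.03 ± 0.09 in germ and somatic cells (adjusted p = 0.868 and 0.909, edgeR).

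Vhl (ENSMUSG00000033933, chromosome 6) and Hif1an (ENSMUSG00000036450, chromosome 19), which act after and beside the hydroxylases, did not pass the test for dex. Vhl stood between 54.0 and 75.4 CPM in all 12 libraries, with dex log2 fold changes of 0.07 ± 0.10 in germ cells and −0.03 ± 0.11 in somatic cells (adjusted p = 0.822 and 0.923, edgeR). Hif1an stood at 183, 170 and 175 CPM with saline and 164, 172 and 157 CPM with dex in germ cells, and between 72.4 and 83.5 CPM in the 6 somatic libraries. Its dex log2 fold changes were −0.11 ± 0.07 and 0.11 ± 0.09 (adjusted p = 0.519 and 0.637, edgeR).

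Vegfa (ENSMUSG00000023951, chromosome 17, 46016993 to 46032369, minus strand) did not pass the test for dex in either population. In germ cells it stood at 18.05, 19.5 and 23.1 CPM with saline and 36.6, 29.9 and 23.9 CPM with dex, without overlap, although the lowest dex and the highest saline library lay close together. The log2 fold change was 0.57 ± 0.16 (adjusted p = 0.097, edgeR; 0.0191 with DESeq2). In somatic cells Vegfa stood at 65.8, 71.6 and 65.0 CPM with saline and 77.1, 58.9 and 67.8 CPM with dex, which overlapped (0.04 ± 0.10, adjusted p = 0.893, edgeR). The difference of its dex effects, 0.56 ± 0.21 (germ minus somatic), had an adjusted p of 0.247 (edgeR).

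**Figure D3:**
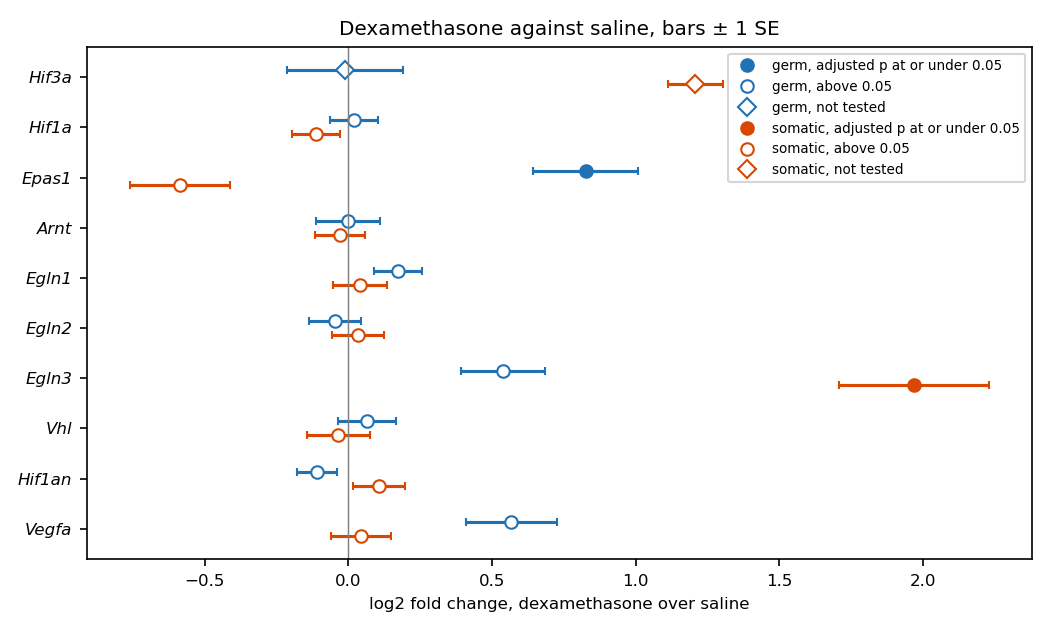
Log2 fold change of dex over saline (horizontal axis) with bars of 1 SE for the 10 genes in germ (blue) and somatic cells (orange), 3 libraries a group. Filled circles passed an adjusted p of 0.05, open circles did not, and diamonds (Hif3a) were not tested. Epas1 in germ cells, at 0.83, and Egln3 in somatic cells, at 1.97, are the filled ones.

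Counted over the 9 members other than Hif3a, 1 rose and 0 fell with dex in germ cells, where 1.25% of 18550 genes were called (0.739% higher and 0.507% lower), and 1 rose and 0 fell in somatic cells, where 3.91% of 16766 genes were called (2.74% higher and 1.17% lower). At an unadjusted p under 0.05, edgeR and DESeq2 alike had 0 of the 9 lower in germ cells and 1 lower in somatic cells, Epas1, which neither called. Groups did not overlap for 4 of the 9 in germ cells (Epas1, Egln1, Egln3 and Vegfa) and for 2 of the 9 in somatic cells (Epas1 and Egln3), against 20.1% and 21.5% of all genes tested. The median log2 fold change of the 9 was 0.07 in germ cells and 0.03 in somatic cells, beside −0.00 and −0.01 over all genes. The dex effect differed between the populations for 2 of the 9, 1 in each direction, where 0.414% of all genes were called in each.

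Of the 9 members other than Hif3a, 7 passed the test between germ and somatic cells in saline animals, 3 higher and 4 lower in germ cells, where 76.5% of 18870 genes were called (39.8% higher and 36.7% lower), so that a call in this comparison is the rule among genes. In dex animals the counts were again 7 of 9, 3 higher and 4 lower, beside 76.3% of 18778 genes (40.5% higher and 35.7% lower). The same 7 genes were called in both: Epas1, Egln3 and Hif1an were higher in germ cells, and Hif1a, Arnt, Vegfa and Egln2 higher in somatic cells. The dex and saline comparisons share no library.

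Hif3a was 5.84-fold lower in saline germ cells than in saline somatic cells (log2 −2.55 ± 0.15), and the log2 difference in dex animals was −3.73 ± 0.15. Both are given with no test, since they hold the somatic libraries by which the gene was chosen; neither pair of groups overlapped. The level of Hif3a in germ cells amounted to 17.9% of that in somatic cells with saline and to 7.93% with dex. For comparison, Amh of Sertoli cells amounted to 0.707% and 0.440%, Dcn of stromal cells to 0.731% and 0.615%, and Pdgfra to 2.73% and 2.08%. With saline, the list medians were 1.37% (Sertoli), 2.72% (fetal Leydig), 1.44% (peritubular and stromal), 4.17% (macrophage), 1.02% (erythroid) and 62.4% (endothelial). The highest marker in each stood at 4.74%, 18.1%, 70.8%, 56.1%, 89.7% and 2741%. With dex, in the same order, the medians were 0.970%, 1.87%, 1.06%, 8.13%, 0.549% and 138%, and the highest were 3.81%, 20.9%, 63.2%, 211%, 154% and 5655%.

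Epas1 was higher in germ cells by 1.91 ± 0.21 in saline and 3.36 ± 0.17 in dex animals on the log2 scale (adjusted p = 4.2e-06 and 2.3e-09, edgeR). Egln3 was higher in germ cells by 2.28 ± 0.27 in saline and by 0.89 ± 0.16 in dex animals (adjusted p = 7.3e-06 and 0.00032, edgeR). In saline somatic libraries Epas1 and Egln3 stood at 25.4% and 19.6% of their saline germ cell levels, whereas the germ cell markers Ddx4 and Dazl stood at 0.221% and 0.116%. Over the 9 germ cell markers the median was 0.163%, and the highest was Kit at 8.30%. Hif1an was higher in germ cells by 1.19 ± 0.08 and 1.00 ± 0.08 (adjusted p = 3.5e-08 and 2.8e-07, edgeR).

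On the somatic side, Vegfa was lower in germ cells by 1.80 ± 0.12 on the log2 scale with saline and 1.25 ± 0.16 with dex (germ minus somatic −1.80 and −1.25; adjusted p = 3.6e-08 and 1.4e-05, edgeR). Arnt differed by −1.01 ± 0.09 and −0.95 ± 0.12 (adjusted p = 7.6e-07 and 1.0e-05, edgeR) and Hif1a by −0.78 ± 0.09 and −0.61 ± 0.09 (adjusted p = 9.6e-06 and 5.1e-05, edgeR). Egln2 differed by −0.27 ± 0.08 and −0.32 ± 0.10 (adjusted p = 0.0115 and 0.0133, edgeR), calls that were lost in 7 and 8 of 15 alternatives. Egln1 (−0.17 ± 0.08 and −0.01 ± 0.09) and Vhl (−0.05 ± 0.12 and 0.09 ± 0.11) did not pass the test in either treatment. The median over all genes was 0.07 in saline and 0.12 in dex animals.

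**Figure D4:**
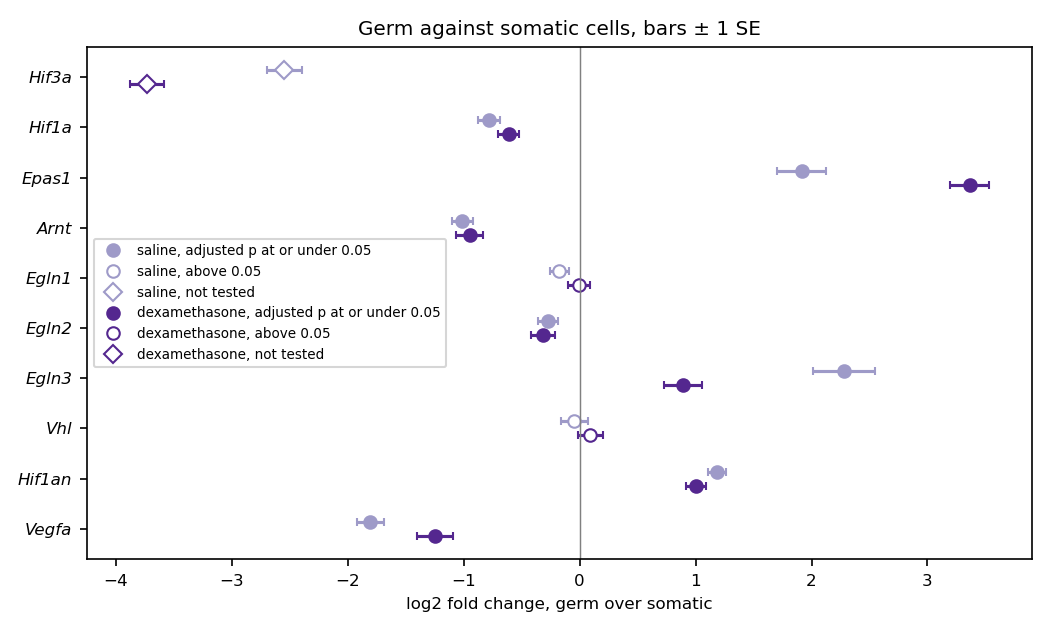
Log2 fold change of germ over somatic cells (horizontal axis) with bars of 1 SE for the 10 genes in saline (light) and dex animals (dark), 3 libraries a group. Filled circles passed an adjusted p of 0.05, open circles did not, and diamonds (Hif3a) were not tested. Epas1, Egln3 and Hif1an are to the right of 0, and Hif3a, Vegfa, Arnt, Hif1a and Egln2 to the left, with either treatment.

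The genes around the members were described by 4 lists, together 76 genes: 18 partners and regulators of HIF, 20 HIF targets of glucose uptake and glycolysis, 15 of vessels, oxygen delivery and iron, and 23 of survival, matrix, pH and feedback. In germ cells 74 of the 76 were tested for dex, and 2 rose and 1 fell, or 4.05% beside the 1.25% of all genes. Without Ddit4 and Ppp1r3c, whose responses were known when the lists were written, 1 of 72 rose and 1 fell, or 2.78%. Slc2a1, the glucose transporter GLUT1, rose from 42.5, 43.0 and 40.9 to 56.5, 61.1 and 62.6 CPM, by 0.50 ± 0.09 (adjusted p = 0.017, edgeR). Cited2, which competes with HIF1A for the coactivators p300 and CBP, fell from 46.4, 57.1 and 47.8 to 30.1, 35.3 and 37.2 CPM, by −0.57 ± 0.12 (adjusted p = 0.030, edgeR). Ddit4, an inhibitor of mTORC1 signalling that is induced by both hypoxia and glucocorticoids, rose by 1.61 ± 0.18 (adjusted p = 0.00057, edgeR).

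Markers of somatic cells in the germ cell libraries moved in directions that differed between cell types. Of all genes tested for dex in germ cells, 1.25% were called with edgeR. The 9 Sertoli cell markers summed to between 72.7 and 88.3 CPM in saline and to between 48.8 and 62.9 CPM in dex germ cells, none of 8 tested being called with edgeR (5 at an unadjusted p under 0.05; 1 called with DESeq2), and those of fetal Leydig cells to between 14.9 and 17.51 and between 9.45 and 12.7 CPM (0 of 5 called; 3 at an unadjusted p under 0.05; 0 with DESeq2). Peritubular and stromal markers summed to between 97.4 and 133 CPM with saline and between 112 and 114 CPM with dex (0 of 7 called with edgeR or DESeq2; 0 and 1 at an unadjusted p under 0.05). Macrophage markers summed to between 9.49 and 13.4 and between 14.9 and 17.6 CPM (0 of 3 called with edgeR, 1 at an unadjusted p under 0.05; 1 called with DESeq2). Erythroid markers summed to between 7.70 and 9.22 CPM with saline and between 4.44 and 7.06 CPM with dex (0 of 3 called with edgeR, 2 at an unadjusted p under 0.05; 1 called with DESeq2). All 8 tested Sertoli, 5 fetal Leydig and 3 erythroid markers had negative log2 fold changes. So had 1 of 7 peritubular and stromal and 2 of 3 macrophage markers. The part of these somatic cells in the germ cell results was not tested. The call of Slc2a1 was lost in 6 and that of Cited2 in 7 of 15 alternatives, for both without dex germ replicate 3, saline germ replicate 1 or saline germ replicate 2, and for Cited2 also without dex germ replicate 1. The call of Ddit4 was lost in 2 of 15. The list medians in germ cells were 0.00 for partners and regulators, 0.07 for glycolysis, −0.11 for vessels and iron and 0.17 for survival and matrix, beside −0.00 over all genes.

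In somatic cells 73 of the 76 were tested for dex, and 11 rose and 1 fell, or 16.4% beside the 3.91% of all genes. Without saline somatic replicate 1, 7 genes of the lists were called. Without Ddit4 and Ppp1r3c, 10 of 71 rose and 1 fell. The list medians were 0.11, 0.18, −0.00 and 0.20 in the same order, beside −0.01 over all genes. None of the 18 partners and regulators was called with edgeR (6 at an unadjusted p under 0.05; 1 called with DESeq2). The nearest was Arnt2, a second partner of the alpha subunits, at −0.45 ± 0.13 (adjusted p = 0.070, edgeR), named after its value was seen.

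Of the glycolysis list 3 of 20 rose: Eno1, an enolase, by 0.37 ± 0.09, Gpi1, glucose-6-phosphate isomerase, by 0.30 ± 0.08, and Ldha, lactate dehydrogenase A, by 0.29 ± 0.07 (adjusted p = 0.023, 0.042 and 0.042, edgeR). These were small changes whose calls were lost in 7, 10 and 11 of 15 alternatives. Eno1 shared 24.2% and Gpi1 12.7% of its 64-base words with other annotated genes; how their reads were placed was not tested.

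Of the vessel and iron list 2 of the 12 tested rose. Angptl4, a secreted inhibitor of lipoprotein lipase, rose from 59.1, 65.5 and 79.6 to 139, 166 and 117 CPM, by 1.08 ± 0.13 (adjusted p = 0.00017, edgeR), a call kept in all 15 alternatives. Cp, the iron oxidase ceruloplasmin, rose by 0.63 ± 0.14 (adjusted p = 0.016, edgeR), a call lost in 7 of 15. In germ cells Angptl4 did not pass the test (−0.04 ± 0.16, adjusted p = 0.942, edgeR), and its dex effect differed between the populations by −1.08 ± 0.20 (germ minus somatic; adjusted p = 0.016, edgeR).

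Of the list of survival, matrix, pH and feedback genes 6 of 23 rose and 1 fell. Ppp1r3c, which directs glycogen synthesis, rose from 2.17, 3.55 and 2.38 to 13.7, 14.7 and 15.4 CPM, by 2.47 ± 0.23 (adjusted p = 1.4e-05, edgeR). Lox, a collagen cross-linking enzyme, rose by 0.84 ± 0.15, Stc2, a secreted stanniocalcin, by 0.95 ± 0.18, and Ndrg1, a stress-induced gene, by 0.67 ± 0.11 (adjusted p = 0.0037, 0.0056 and 0.0031, edgeR). Car12, a carbonic anhydrase, fell by 1.503 on the log2 scale (SE 0.28; adjusted p = 0.0060, edgeR). P4ha2 and Vldlr also rose. The calls of Ppp1r3c and Ndrg1 were kept in all 15 alternatives, those of Lox and Car12 were lost in 2 and that of Stc2 in 3. Lox is also made by stromal cells, and 4 of the 8 peritubular and stromal markers rose in the same libraries. The part of such cells in the values of Lox and the other listed genes was not tested.

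**Figure D5:**
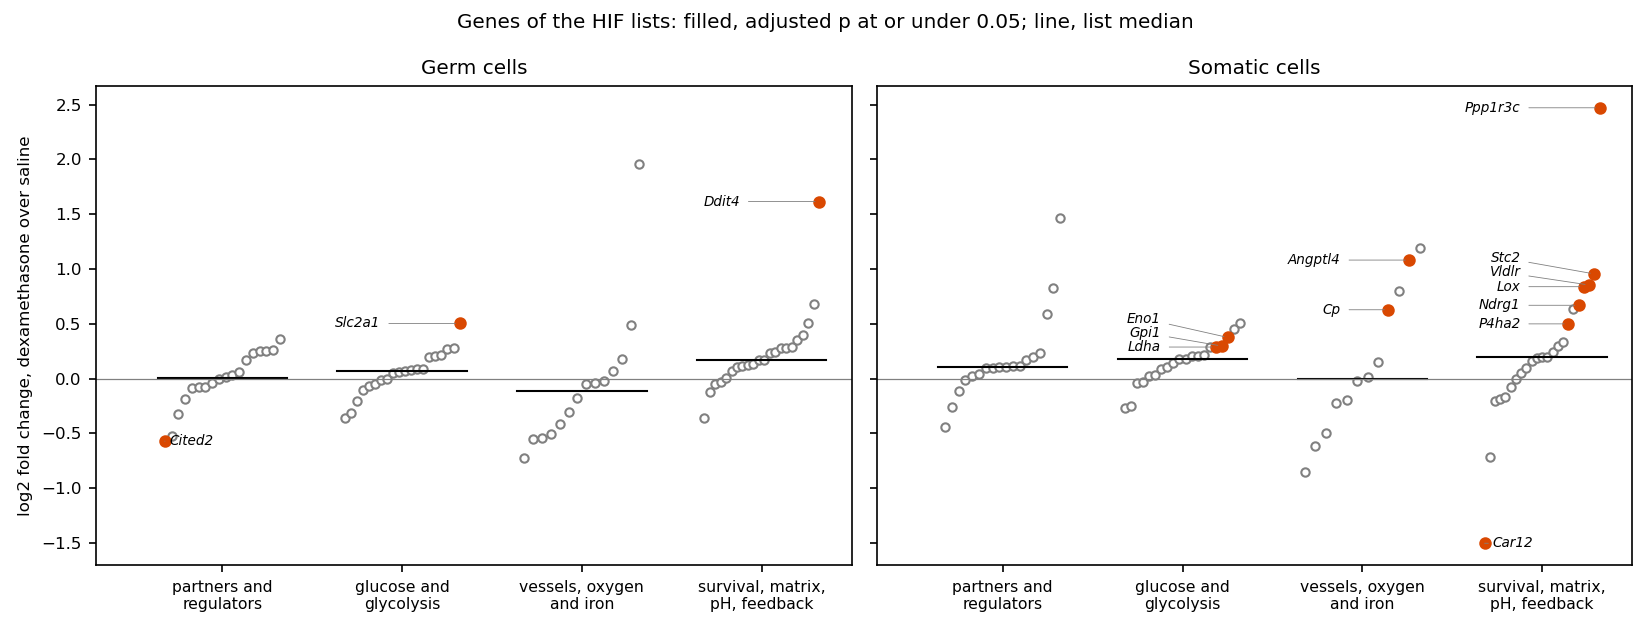
Log2 fold change of dex over saline (vertical axis) for the tested genes of the 4 lists (horizontal axis) in germ cells (left) and somatic cells (right), ordered within each list. Filled points passed an adjusted p of 0.05 and are named, open points did not, and lines are list medians. There are 3 filled points in germ cells and 12 in somatic cells.

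Between germ and somatic cells the lists were split. In saline animals 27 of 74 tested genes were higher (36.5%) and 32 lower (43.2%) in germ cells, beside 39.8% and 36.7% of all genes. In dex animals 31 of 75 were higher (41.3%) and 35 lower (46.7%), beside 40.5% and 35.7%. Among the glycolysis genes in saline animals, 5 were higher and 9 lower in germ cells. The lactate transporter Slc16a3 (−4.06), Tpi1 (−3.44), Pfkl (−2.93) and Pgk1 (−2.49) were lower, although 53.3% of the words of Pgk1 were shared with other genes, and the phosphofructokinase Pfkp (2.63) was higher in germ cells (log2 differences, adjusted p at most 1.7e-09, edgeR). Among the vessel genes, endothelin Edn1 (−7.31), Cp (−5.57) and Angptl4 (−2.35) were lower and the VEGF receptor Flt1 (4.12) and Pdgfb (1.66) higher. Among the remaining targets, Lox (−6.60) and the lipid droplet protein Plin2 (−2.38) were lower and the adenylate kinase Ak4 (5.38), the oxidase Ero1a (1.95) and the histone demethylase Kdm3a (1.52) higher in germ cells.

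Of the partners and regulators in saline animals, 9 were higher and 6 lower in germ cells out of 18. Cited2 (−2.61) and Os9 (−1.95) were lower, and the ubiquitin ligases Siah1b (2.44) and Siah2 (1.25), which act on the EGLN proteins, and the transcriptional repressor Bhlhe41 (3.27) were higher. The SIAH ligases were split, since Siah1a, named beyond the leading genes, was called lower in germ cells with either treatment. It amounted to 49.6% of its somatic level with saline and to 57.4% with dex. In dex animals Cited2 stood at −3.17, Siah1b at 2.46, Os9 at −2.19, Tpi1 at −3.62, Pfkl at −2.91, Edn1 at −8.03, Lox at −6.73 and Ak4 at 5.34. Angptl4 stood at −3.44 there, against −2.35 in saline animals, the difference of dex effects given above. Cul2 (1.21), Ep300 (1.29), Tfrc (1.55) and Ldha (−2.04) were among the leading genes in dex animals.

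The 5 genes whose log2 CPM followed Hif3a most closely over the 12 libraries, out of 12503 protein-coding genes compared, were Angptl4 (Pearson r = 0.995), Gadd45g (0.995), Cyba (0.992), Penk (0.990) and Nt5dc2 (0.990). The libraries fall into 3 levels, germ cells, saline somatic cells and dex somatic cells, so these values describe genes with the same 3 steps and give no relation within a group. Penk, which encodes proenkephalin, stood between 60.3 and 96.3 CPM in saline and between 211 and 223 CPM in dex somatic cells, and at most at 5.73 CPM in germ cells.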

How the data were processed

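Messenger RNA of sorted testis cells was sequenced in 12 libraries. Per the labels, the authors aligned reads with HISAT2 2.0.5 to mm10 and counted genes with featureCounts 1.5.0-p3, and the submitters' processing notes also name DESeq2 1.20.0; the annotation release and the strand setting are not given in the sources used here. The deposited counts are raw reads per gene, and the deposited FPKM values correct for gene length and depth. The deposited tables of the authors' own comparisons (fold changes and p-values) were not used.

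Here, genes were tested on the counts with edgeR 4.0.16 (quasi-likelihood test, TMM scaling, filterByExpr with a minimum count of 10, R 4.3.3), separately for each pair of groups, with a fit over all 4 groups for the difference of the dex effects. P-values were adjusted by Benjamini-Hochberg over all genes tested, and a gene was called at 0.05. The SE is the log2 fold change divided by the square root of F. CPM were TMM-scaled over the 12 libraries. Alternatives were DESeq2 1.42.0, limma 3.58.1 on log2(FPKM + 0.1) and log2(FPKM + 1), other scalings and filters, a replicate block, leaving out each library, and, chosen after seeing the data, 1 fit over 12 libraries. The fits were tested on simulated data. Replicates correlated at r = 0.979 to 0.990 and none was a copy of another. Members shared at most 5.02% of their 64-base words with other genes (Hif1a), and genes overlapping a member held at most 1.25% of its counts.

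The members and lists were chosen with earlier results of these data known. Named are all members, the called genes of the pathway lists (at most 5 a list and comparison, by lowest adjusted p) and the 5 genes most like Hif3a (average log2 CPM of at least 1). Hif3a was left out of all counts of calls, between germ and somatic cells too, where it had been planned to count. List genes were matched by symbol, and 1 gene of the lists is not reported here. Each library was a pool over litters, and p-values measure the spread between these pools.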

Additional observations from a re-analysis of the deposited data

Results flagged for a closer look

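For 5 genes of the members and lists the dex effect differed between germ and somatic cells in a test of the difference itself (edgeR interaction, adjusted over 20551 genes). Groups of 3 libraries are too small for a test of single outlying libraries. Among the members, Epas1 differed by 1.4501 on the log2 scale (germ minus somatic; adjusted p = 0.028, edgeR), with log2 fold changes of 0.83 in germ and −0.59 in somatic cells, and Egln3 by −1.3838 (adjusted p = 0.045, edgeR), with 0.54 and 1.97. The call of Epas1 was lost in 9 and that of Egln3 in 14 of 20 alternatives, for both mostly in fits that left out 1 library.

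Among the other genes, the glycogen-targeting subunit Ppp1r3c differed by −1.9234 (adjusted p = 0.0043, edgeR) and this was called in all 20 alternatives. Ddit4 differed by 1.4942 (adjusted p = 0.015, edgeR): in germ cells it went from 29.5, 33.1 and 49.98 to 90.6, 144 and 112 CPM, whereas in somatic cells the libraries were at 106, 155 and 114 CPM with saline and at 158, 113 and 137 CPM with dex. Angptl4 differed by −1.0849 (adjusted p = 0.016, edgeR). The calls of Ddit4 and Angptl4 were lost in 4 and 3 of 20 alternatives, for Ddit4 without saline germ replicate 1 or 2 and for Angptl4 without dex germ replicate 1 or saline germ replicate 2, and otherwise with limma. Ddit4 and Ppp1r3c were known to respond before they were listed.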

How the results depend on the processing

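Of the tested members' results, the 18 that were called kept their direction in all alternatives, and 47 of 280 values lost the call. Of 27 that were not called, 46 of 440 values changed sign and 9 passed the threshold. Between germ and somatic cells of saline animals the same-numbered libraries correlated in their deviations from the group means at 0.0915, 0.114 and 0.102, each best with its own number, which is a hint of pairing from the data; 1 pair was under 0.1, the level required here of every pair. In the other comparisons same-numbered pairs lay between −0.17 and 0.0881, with both signs in each. The numbers were therefore not taken to pair the libraries. With the replicate block, edgeR called 65 genes for dex in germ cells, 0 members there, and for the difference of the dex effects 104 genes and 1 member, Epas1.

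All genes called for dex in germ cells, 231 in the report, were 675 with DESeq2, 767 without a filter, 6 and 12 with limma on FPKM with pseudocounts 0.1 and 1, 142 with 1 fit over 12 libraries, and 49 to 265 leaving out 1 library. In somatic cells 655 became 1061 without a filter, 251 and 281 with limma, and 354 to 547 leaving out 1 library. For the difference of the dex effects 170 became 620 with DESeq2, 706 without a filter, 262 with at least 10 counts in every library, 57 with limma (0.1), and 79 to 172 leaving out 1 library. Members called for dex in germ cells (1) were 2 with DESeq2 (Egln3 and Vegfa), 3 without a filter, 0 with limma, the block and 1 fit over 12 libraries, and 0 to 1 leaving out 1 library. In somatic cells (1) they were 2 with library totals or no filter and 1 to 2 leaving out 1 library. For the difference (2) they were 0 with limma and 0 to 1 leaving out 1 library. Pathway genes called were 9 with DESeq2, 8 without a filter, 0 with limma and 1 to 6 leaving out 1 library in germ cells (3), and 3 with limma and 7 to 10 leaving out 1 library in somatic cells (12). The cause of these shifts was not tested.

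Library totals moved the share of dex calls that were higher from 59.3% to 69.3% in germ cells, from 70.1% to 53.5% in somatic cells and from 50% to 67.0% for the difference, and moved the median of germ against somatic cells by 0.14 in saline and 0.18 in dex animals.

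Signs changed only in results that were not called. Hif1a for dex in germ cells was −0.0408 to 0.0765 leaving out 1 library. Arnt for dex in germ cells was 0.00206 with DESeq2, 0.00193 with RLE size factors, 0.0223 with library totals, 0.00314 with no filter, 0.014 with limma (0.1), 0.0133 with limma (1), 0.00527 with 1 fit over 12 libraries and −0.12 to 0.094 leaving out 1 library. Egln2 for dex in germ cells was −0.114 to 0.0165 leaving out 1 library. Vhl for dex in germ cells was −0.044 to 0.122 leaving out 1 library. Arnt for dex in somatic cells was −0.0983 to 0.0312 leaving out 1 library. Egln1 for dex in somatic cells was −0.0176 with library totals. Egln2 for dex in somatic cells was −0.026 with library totals and −0.0561 to 0.0947 leaving out 1 library. Vhl for dex in somatic cells was −0.105 to 0.0747 leaving out 1 library. Vegfa for dex in somatic cells was −0.0147 with library totals and −0.0526 to 0.138 leaving out 1 library. Vhl for germ against somatic cells with saline was 0.0579 with DESeq2, 0.0511 with RLE size factors, 0.093 with library totals, 0.012 with at least 10 counts in every library, 0.0885 with limma (0.1), 0.0844 with limma (1) and −0.136 to 0.0939 leaving out 1 library. Egln1 for germ against somatic cells with dex was 0.104 with DESeq2, 0.0934 with RLE size factors, 0.175 with library totals, 0.0671 with no filter, 0.0612 with at least 10 counts in every library, 0.104 with limma (0.1), 0.0999 with limma (1) and −0.0882 to 0.0531 leaving out 1 library. Arnt for the difference of the dex effects was −0.0629 to 0.141 leaving out 1 library. Egln2 for the difference of the dex effects was 0.00259 with library totals and −0.112 to 0.0304 leaving out 1 library.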

Other observations

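Genes next to the system in 2 further lists, written after the data were seen, were read in the same way. Of 9 other VEGF ligands and receptors, 0 were called for dex in either population by edgeR at an adjusted p of 0.05 (2 in germ and 4 in somatic cells at an unadjusted p under 0.05). DESeq2 called 1 in germ cells and 0 in somatic cells. In saline animals 8 of the 9 were called between the populations, 1 higher and 7 lower in germ cells, where 76.5% of all genes were called (39.8% higher and 36.7% lower). As group means of germ and somatic libraries with saline, the receptor gene Flt1 reached 41.4 and 2.29 CPM, the coreceptor gene Nrp1 2.91 and 76.4 CPM, and the ligand genes Vegfb 6.71 and 65.7 CPM and Vegfd 1.34 and 36.3 CPM.

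Of 12 other proteins of the bHLH-PAS family, to which the HIF subunits belong, 0 of the 10 tested were called for dex in either population by edgeR (1 in each at an unadjusted p under 0.05), and 0 in germ and 1 in somatic cells by DESeq2. In saline animals 7 of 10 were called between the populations, or 70% beside 76.5% of all genes. All 7 were higher in germ cells, where 39.8% of all genes were called higher and 36.7% lower. Clock stood at 95.95 and 47.3 CPM and Arntl at 48.8 and 19.5 CPM in saline germ and somatic cells (group means). Sim2 averaged 2.64 CPM over the saline germ cell libraries and had no counts in somatic libraries.

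The glycolysis gene Gapdh stood at 81.0 CPM in dex somatic replicate 3 and at 81.0 CPM in saline somatic replicate 3, against 10.6 and 14.05 CPM in the other dex and 24.0 and 23.3 CPM in the other saline somatic libraries. It stood between 3.67 and 6.14 CPM in germ cells. Of its 64-base words 23.6% were shared with other annotated genes.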
